A study of Mus musculus with 2 samples.

Results

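Mature osteoblasts, the cells that lay down mineralizing bone matrix, were 172 of the 3428 cell barcodes captured from the femoral metaphysis of vehicle- and teriparatide-treated mice. They were chosen by their own transcripts. A member passed the cell filters (200 to 6000 genes, at least 3000 UMIs, at most 10% of UMIs from mitochondrial genes), held no UMI of Ptprc, the pan-leukocyte CD45 gene, and had Acan under 5, Mepe under 2, Col1a1 of at least 400 and Bglap plus Bglap2 of at least 50 per 10000 UMIs of the cell. A UMI (unique molecular identifier) marks a captured mRNA molecule. Of the 1123 Ptprc-negative cells that passed the cell filters, 85 of 426 in the vehicle library and 87 of 697 in the teriparatide library were members.

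The study asked how teriparatide, the bone-building fragment of parathyroid hormone, acts on cells descended from Gli1-expressing progenitors. All mice were Gli1-CreERT2;Ai9 on a mixed background, so that tamoxifen marks Gli1-expressing cells and their progeny with tdTomato, and both sexes were used, in the same split and with more males in each group. They received tamoxifen on 3 days from 1 month of age and then 3 daily injections of vehicle or of teriparatide at 400 ng per g of body weight, after which tdTomato+CD31-CD45-Ter119- cells were sorted. Each of the 2 groups was 1 deposited matrix from the 10x Genomics 3′ kit. The methods speak of a matrix for each mouse, but the deposited barcodes carry no label of a mouse, and a group is treated here as 1 library. There are therefore no replicates, no test is given, and every interval below is a 95% interval for counting error only, which does not cover the difference between mice.

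Osteoblasts descend from mesenchymal progenitors through Runx2- and Sp7-expressing preosteoblasts. They secrete type I collagen, a heterotrimer of Col1a1 and Col1a2 chains, and then the proteins that bind mineral, among them osteocalcin (Bglap and its copies), osteopontin (Spp1), bone sialoprotein (Ibsp) and osteonectin (Sparc). Some become buried in the matrix as osteocytes, which express Dmp1, Phex, Mepe and later Sost. Teriparatide acts through Pth1r, a receptor that raises cAMP in osteoblasts and osteocytes.

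The osteocalcin genes lie in one gene cluster, and Dmp1, Ibsp and Spp1 in another. Bglap (3:88383501-88384464, minus strand), Bglap2 (3:88377736-88378699) and Bglap3 (3:88368616-88372743) are neighbours on chromosome 3 of GRCm38. Dmp1 (5:104202613-104214102), Ibsp (5:104299171-104311469) and Spp1 (5:104435118-104441050) lie in this order on the plus strand of chromosome 5, with Mepe between Ibsp and Spp1. The 250 bases before the start of Bglap (chr3:88384467-88384716, minus strand), Spp1 (chr5:104434861-104435110, plus strand) and Ibsp (chr5:104299037-104299286, plus strand) are shown from RefSeq on GRCm38.p6, 5′ to 3′ on the gene's strand, because osteocalcin defines these cells and Spp1 and Ibsp were the most abundant of the matrix genes that were at least 2-fold higher with teriparatide. The RefSeq start of Ibsp lies downstream of the GENCODE start given above, so that a part of its bases lies within the gene as GENCODE places it. Capitals mark ACCACA, the core bound by Runx factors, searched on both strands.
Bglap: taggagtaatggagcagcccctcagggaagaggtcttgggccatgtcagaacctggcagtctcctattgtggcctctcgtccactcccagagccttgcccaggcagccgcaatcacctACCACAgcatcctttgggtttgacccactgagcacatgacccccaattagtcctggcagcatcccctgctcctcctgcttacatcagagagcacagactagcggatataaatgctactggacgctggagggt
Spp1: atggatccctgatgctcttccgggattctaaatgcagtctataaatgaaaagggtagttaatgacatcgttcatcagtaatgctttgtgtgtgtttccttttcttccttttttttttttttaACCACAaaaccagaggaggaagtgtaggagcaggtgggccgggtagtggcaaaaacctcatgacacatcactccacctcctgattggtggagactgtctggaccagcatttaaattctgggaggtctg
Ibsp: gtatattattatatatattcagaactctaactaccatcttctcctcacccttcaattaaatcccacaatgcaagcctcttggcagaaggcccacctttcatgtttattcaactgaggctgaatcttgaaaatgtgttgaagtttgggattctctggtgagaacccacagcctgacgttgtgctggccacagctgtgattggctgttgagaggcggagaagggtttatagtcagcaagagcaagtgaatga
The core stood from -132 to -127 of the Bglap start and from -128 to -123 of the Spp1 start. The 250 bases before Ibsp did not hold these letters. Of all 32851 promoters in the table, 14% held the core on either strand in the same 250 bases.

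The osteocalcin genes are near-identical copies, and this limits what their separate values mean. Over the 440 aligned bases of their GENCODE transcripts, Bglap and Bglap2 were 98.6% identical, and their last 100 bases, where a 3′ library reads, were 100% identical. Bglap3 matched both at 98 of its last 100 bases. Reads from these ends cannot be assigned to Bglap or Bglap2, and to Bglap3 only where they cover a base that differs, so the split between the copies is uncertain, and Bglap plus Bglap2 is the firmer quantity.

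The members held a large part of their UMIs in a handful of matrix genes. Col1a1, Bglap and Bglap2 were used to choose the cells, so a high share was partly set by the rule and is a description. Col1a1 and Col1a2 together held 24% of the UMIs of vehicle members and 20.9% of those of teriparatide members, and with Sparc, Bglap and Bglap2 the share was 37.3% and 33.6%. The 85 vehicle members held 1929119 UMIs in all and the 87 teriparatide members 2413790. The median member held 15933 UMIs and 2978 genes with vehicle, against 25278 UMIs and 3779 genes with teriparatide, so that teriparatide members were the more deeply sampled. Mitochondrial genes held a median of 2.78% and 3.54% of a member's UMIs. The libraries shared 2 barcodes, and 0 of these was a member in both.

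The 6 marker genes of the class were present at similar levels in the libraries, except Car3. The values of Col1a1, Bglap and Bglap2 chose the cells and are given as a description. Col1a1 ran from 592 over a median of 1567 to 3063 per 10000 UMIs of a vehicle cell and from 448 over 1206 to 2509 with teriparatide. Bglap plus Bglap2 ran from 50.6 over 789 to 2559 with vehicle and from 53.9 over 693 to 3043 with teriparatide. The cells just outside the limits, which met every other criterion, had at most 301 and 70.5 for Col1a1 and at most 49.4 and 29.4 for Bglap plus Bglap2 in the vehicle and teriparatide library. These were 8 and 1 cells for Col1a1 and 17 and 17 cells for Bglap plus Bglap2. Among these few cells collagen left a gap at the limit, whereas osteocalcin was continuous across it in the vehicle library.

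Ifitm5, which encodes the osteoblast membrane protein BRIL, and Sp7, the osterix transcription factor, were not used by the rule. Summed over the members of a library and scaled to counts per 1000000 UMIs (CPM), Ifitm5 stood at 1077 with vehicle and 841 with teriparatide. Sp7 stood at 233 and 231. A UMI of Ifitm5 was found in 91.8% of vehicle and 94.3% of teriparatide members, and in 85.9% and 80.5% once every cell was thinned to 3000 UMIs. In the Ptprc-positive cells, hematopoietic cells that should lack it, the share was 5.26% and 10.3% at median depths of 8987 and 13112 UMIs. Sp7 was found in 85.9% and 94.3% of members (47.1% and 44.8% thinned), against 1.75% and 0.792% of Ptprc-positive cells. Both markers were therefore present in most members and rare in the hematopoietic cells of the same libraries. Because UMIs are counted from 3′ tags, gene length does not enter comparisons of level between genes.

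Car3, a carbonic anhydrase of slow muscle, fat and bone, was 2.30-fold lower with teriparatide. A vehicle member held 0 to 50.8 Car3 UMIs per 10000, with a median of 11.8, and a teriparatide member 0 to 30.7, with a median of 4.04. The groups overlapped, but the lower values lay mostly in the teriparatide library. The summed level was 1504 CPM with vehicle and 655 CPM with teriparatide (log2 ratio -1.20, -1.29 to -1.11). Sex moved with this gene. In the vehicle library Car3 was at 926.5 CPM in male and 1808 CPM in female members, and within male members alone the log2 ratio of teriparatide to vehicle was -0.47 (-0.61 to -0.32). Car3 was lower with teriparatide in other Ptprc-negative cells too, and by more than in the members. Its log2 ratio was -2.52 in cells with high Col1a1 but osteocalcin under the limit. In all non-members with Acan and Mepe under the limits it was -3.33.

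The composition by sex differed between the libraries. Cells with UMIs from the Y-linked genes Kdm5d, Uty, Eif2s3y or Ddx3y but not from Xist were taken as male, and cells with Xist but no Y-linked UMI as female. The vehicle members were 26 male, 47 female and 12 cells without a call, and the teriparatide members 71 male, 4 female and 12 without a call. Sex and treatment can therefore be told apart only within male members, and the male value is given beside the main results. Their median depths were 15814 UMIs in 26 vehicle cells and 26789 in 71 teriparatide cells. For female members the medians were 26607 UMIs in 47 vehicle cells and 26049 in 4 teriparatide cells.

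Of the Ptprc-negative cells, mature osteoblasts made up 20.0% (16.3 to 24.1) with vehicle and 12.5% (10.1 to 15.2) with teriparatide. Among male cells the share was 13.8% (9.24 to 19.6, 26 of 188 cells) with vehicle and 14.3% (11.3 to 17.7, 71 of 497 cells) with teriparatide. Among female cells it was 28.7% (21.9 to 36.2, 47 of 164 cells) and 5.13% (1.41 to 12.6, 4 of 78 cells). The intervals of male cells overlapped and those of female cells did not. Female cells were 164 of 426 with vehicle and 78 of 697 with teriparatide, so the share over all cells also depends on the mix of the sexes. Shares also depend on the sort and on how many cells of other kinds a library holds, and with Ptprc-positive cells in the denominator they were 17.6% and 8.09%. The neighbouring classes were small. Preosteoblasts, with Postn, Aspn and Tnn summing to at least 5 and Col1a1 under 400 per 10000 UMIs, were 19 and 24 cells, osteocyte-like cells, with Mepe of at least 2, were 11 and 28 cells, and cells with high Col1a1 but osteocalcin under 50 were 17 and 17.

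Besides osteocalcin, the genes that set the members most apart from preosteoblasts were Col22a1, Col11a2, Rerg, Fxyd6, Phex, Entpd3 and Cpz. These genes were ranked by the lower of the log2 ratios of the 2 libraries, as a description. Col22a1, a collagen of tissue junctions, stood at 399 and 511 CPM in vehicle and teriparatide members and at 0 and 17.6 CPM in preosteoblasts. Col11a2, a chain of the fibril-forming type XI collagen, stood at 3050 and 2701 CPM against 112 and 20.1 CPM. Phex, an endopeptidase gene whose loss causes hypophosphatemic rickets, stood at 203 and 265 CPM against 0 and 2.51 CPM. Cpz, a Wnt-binding carboxypeptidase, stood at 793 and 508 CPM against 57.7 and 12.6 CPM.

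Against the osteocyte-like cells, the genes ranked highest apart from osteocalcin and Ifitm5 were Dcn, Lum, Cthrc1, Col11a2, Rcn3, Pcolce and Col11a1. Col11a2 stood in both lists. Dcn and Lum, small proteoglycans that bind collagen fibrils, stood at 4353 and 2329 CPM in vehicle members and at 2726 and 1614 CPM in teriparatide members. In osteocyte-like cells Dcn was at 0 and 46.7 CPM and Lum at 0 and 8.49 CPM. The vehicle osteocyte-like cells held only 65479 UMIs in all, so a count of 0 there is a weak limit. Conversely Dmp1 stood at 12065 and 16938 CPM in osteocyte-like cells, against 177 and 870 CPM in members, and Spp1 at 222545 and 202234 CPM, against 1973 and 24478 CPM.

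The members also differed among themselves. The values of Bglap, Bglap2 and Col1a1 were used to choose the cells, and the unevenness of these genes is a description. After thinning to 3000 UMIs, the Fano factor, the variance of a gene's UMIs across cells over their mean, is near 1 when only counting varies. Its median over 1168 genes was 1.15 in both libraries. Bglap had 98.4 with vehicle and 106 with teriparatide, Spp1 126 and 71.6, Bglap2 46.0 and 46.0, Dmp1 17.5 and 30.4 and Ibsp 9.35 and 35.7. Col1a1, at 36.2 and 49.8, was more abundant than Bglap but less uneven. Malat1, a nuclear noncoding RNA, had 67.1 and 43.8, and mt-Atp6, Col1a2, Sparc, Col3a1 and Gm42418 completed the 12 most uneven genes.

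Osteocalcin, by which the members were chosen, varied weakly together with Spp1 and in the opposite direction to Ibsp. Across the 85 vehicle members, Spearman's rho of Bglap plus Bglap2 was 0.31 with Spp1 and -0.25 with Ibsp, and across the 87 teriparatide members 0.22 and -0.48. With Serpine2, which encodes protease nexin-1, rho was -0.17 and -0.44, and with Ecm1, an extracellular matrix protein gene, 0.05 and -0.37. Spp1 and Dmp1 had rho of 0.25 and 0.38. The cells of a library share its depth profile and a fixed sum of UMIs, and these coefficients are descriptions.

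**Figure D1:**
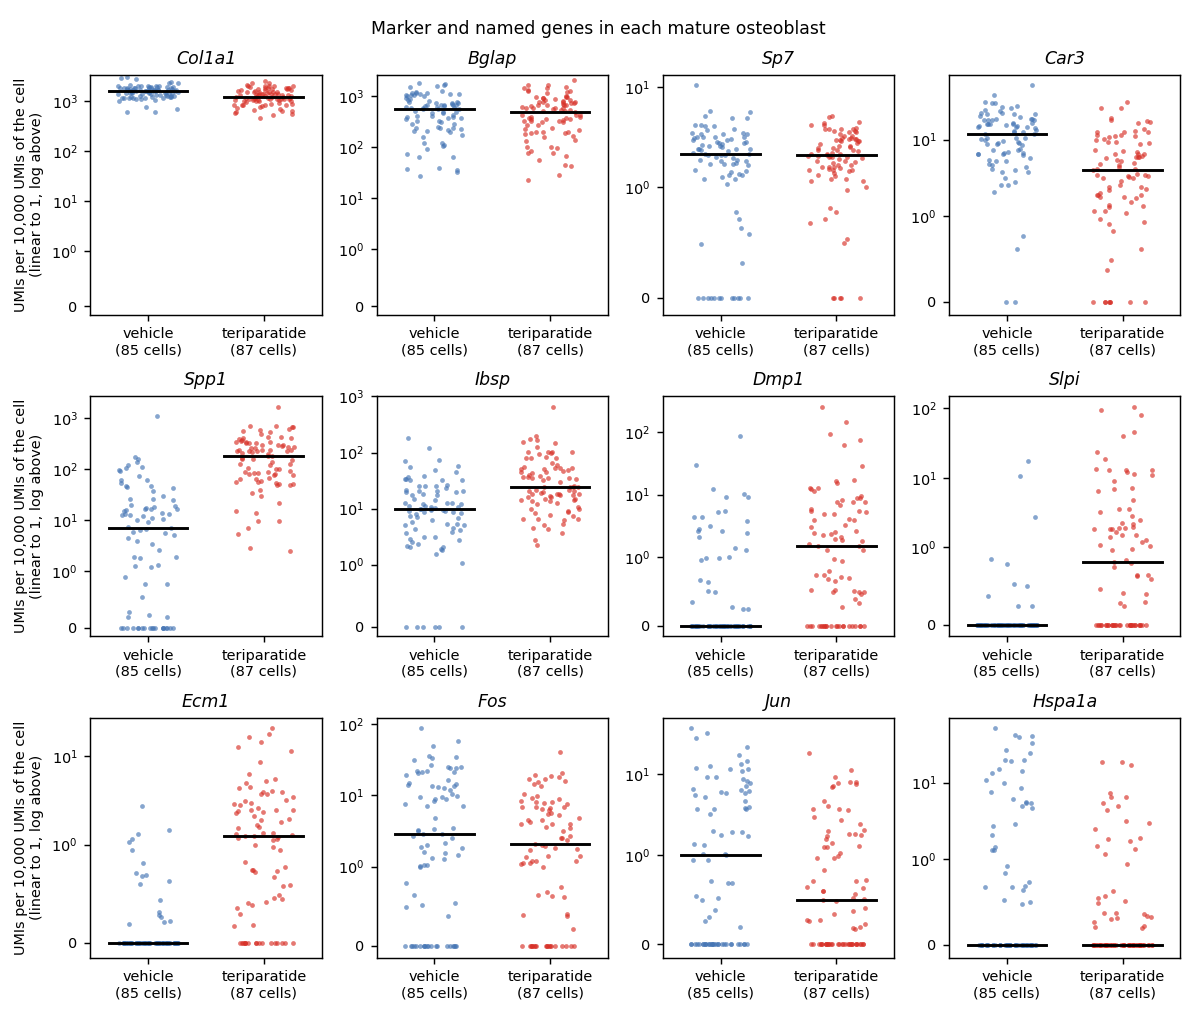
UMIs per 10000 UMIs of the cell (vertical axis, linear up to 1 and logarithmic above) for 12 genes in each of 85 vehicle (blue) and 87 teriparatide (red) mature osteoblasts. Points are cells, black lines are medians. The medians of Col1a1, Bglap and Sp7 lie close together, that of Spp1 lies at 6.88 against 178, and Slpi and Ecm1 have a median of 0 with vehicle and above 0 with teriparatide.

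For the comparison of teriparatide with vehicle, 5847 genes had at least 50 summed UMIs in the members. Of these, 154 (2.63%) were at least 2-fold higher and 133 (2.27%) at least 2-fold lower with teriparatide, and the median log2 ratio was -0.11. Setting that median to 0 gave 194 higher and 89 lower genes. The counts given below for gene lists are to be read beside these shares of all genes. Of the 154 higher genes, 122 had enough UMIs in male members, and 120 of these were above 0 and 88 at least 2-fold higher there. Of the 133 lower genes, 62 had enough UMIs in male members, with 60 below 0 and 45 at least 2-fold lower.

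**Figure D2:**
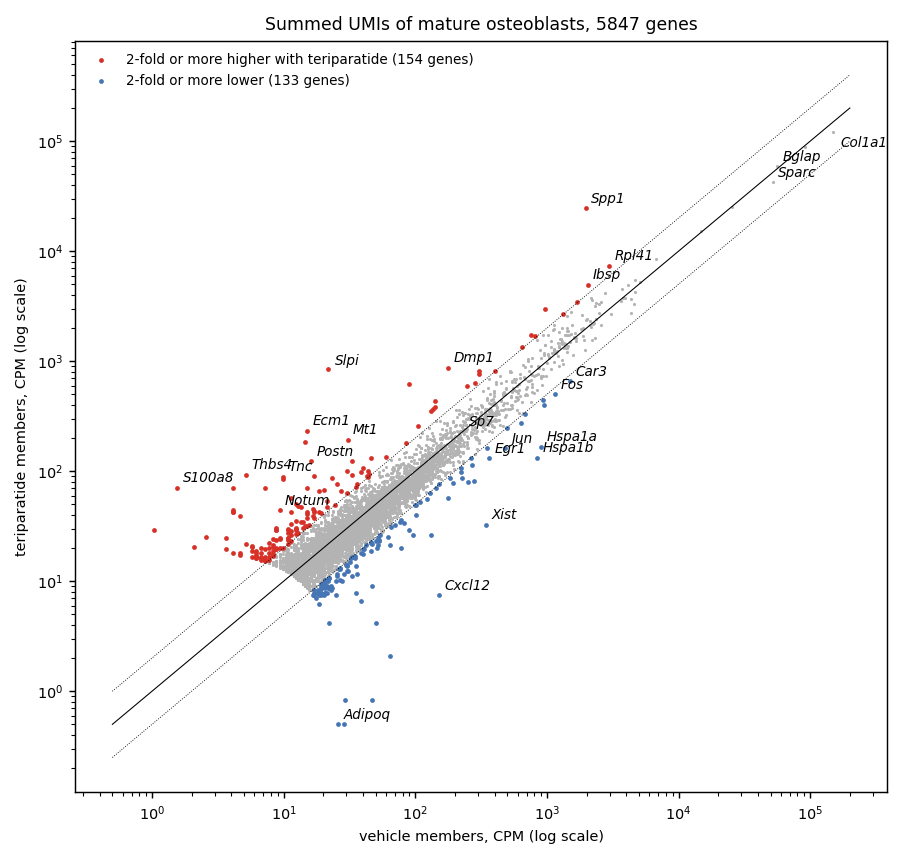
Summed level of each of 5847 genes in vehicle (horizontal) and teriparatide members (vertical), in CPM on log axes, with values under 0.5 CPM drawn at 0.5. The solid line marks equality and the dotted lines 2-fold. Spp1, at 1973 against 24478 CPM, stands furthest above the 2-fold line among the abundant genes, and Hspa1a and Hspa1b stand below it.

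Spp1 had the largest difference of the abundant bone matrix genes, and was higher with teriparatide. Osteopontin, its product, is a phosphoprotein that binds hydroxyapatite and cell surface integrins. A vehicle member held from 0 over a median of 6.88 to 1103 Spp1 UMIs per 10000, and a teriparatide member from 2.49 over 178 to 1653. The ranges overlapped, but the upper quartile of the vehicle members (25.1) lay under the lower quartile of the teriparatide members (64.8). Spp1 was found in 77.6% of vehicle and 100% of teriparatide members (62.4% and 100% thinned), against 24.6% and 44.6% of Ptprc-positive cells. Its summed level was 12.4-fold higher, at 24478 against 1973 CPM (log2 ratio 3.63, 3.59 to 3.68). Within male members the log2 ratio was 3.58 (3.50 to 3.66), and within the 4 female teriparatide cells against the 47 female vehicle cells it was 4.48. Ptprc-positive cells held 45.0 and 610.5 CPM of Spp1, below the members of the same library but also higher with teriparatide. The part of RNA shared between cells in the Spp1 of members was not tested.

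Ibsp and Dmp1, in the same cluster as Spp1 on chromosome 5, were higher too, but by less. Ibsp encodes bone sialoprotein, which nucleates mineral. It ran from 0 over a median of 9.71 to 185 per 10000 UMIs with vehicle and from 2.21 over 24 to 648 with teriparatide, with overlapping ranges. Its summed level was 2038 and 4974 CPM (log2 ratio 1.29, 1.23 to 1.34), with 0.92 (0.84 to 1.00) in male members. Dmp1, which encodes dentin matrix protein 1, ran from 0 over 0 to 86.0 with vehicle and from 0 over 1.49 to 256 with teriparatide. Most teriparatide members held little of it, and 5 cells held 69.4% of its UMIs there, against 71.9% in 5 vehicle cells. The log2 ratio of Dmp1 was 2.29 (2.13 to 2.46) over all members and 0.86 (0.64 to 1.09) in male members. The levels were 322 and 584 CPM in male and 96.3 and 5579 CPM in female members.

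Of the 17 genes compared from a list of other bone matrix proteins, 6 were at least 2-fold higher and 1 was lower, and the list's median log2 ratio was 0.15, against -0.11 over all genes compared. The higher genes were Spp1, Ibsp, Fn1, Mgp, Tnc and Thbs4. Fn1, fibronectin, stood at 304 and 808 CPM (log2 ratio 1.41, with 1.37 in male members). Mgp, the matrix Gla protein that restrains mineral deposition, stood at 23.3 and 86.6 CPM (1.89, with 1.20 in male members). Mgp was found in 17.6% and 74.7% of members (2.35% and 26.4% thinned), but also in 7.02% and 58.8% of Ptprc-positive cells, and Acan-positive, chondrocyte-like cells held 33044 and 50935 CPM of it. The part of RNA from these cells in the Mgp of members was not tested. The lower gene was Bglap3, at 195 and 78.7 CPM (-1.31 in all and in male members), a value that depends on how reads were split among the osteocalcin copies. Bglap and Bglap2 themselves were at 55656 and 59412 CPM and at 25242 and 25334 CPM. Sparc, osteonectin, stood at 51710 and 42457 CPM (-0.28).

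Among 15 collagen chains, Col6a3, Col12a1 and Col6a2 were at least 2-fold higher and none was lower, with a median log2 ratio of 0.36. Of all genes compared, 2.63% were higher and 2.27% lower by that much, with a median of -0.11. Type VI collagen forms beaded filaments around cells, and type XII collagen decorates collagen fibrils. Col6a3 ran from 0 over a median of 0 to 4.39 per 10000 UMIs with vehicle and from 0 over 0.27 to 34.9 with teriparatide. It stood at 14.5 and 184 CPM (log2 ratio 3.67, 3.12 to 4.27), with 3.35 in male members. Col12a1 stood at 33.2 and 123 CPM (1.89, with 1.66 in male members) and Col6a2 at 85.5 and 181 CPM (1.08, with 1.12). The main fibril chains were close to equal, at 149481 and 120222 CPM for Col1a1 (-0.31) and 90851 and 88751 CPM for Col1a2 (-0.03). Of 29 genes that process collagen, 1, Loxl3, was higher (1.02, with 0.90 in male members) and 1, Loxl2, was lower (-1.63, with -1.43 in male members). Both encode enzymes that crosslink collagen.

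Slpi had the largest log2 ratio of the 24 genes named for their ratio, at 5.29 (4.85 to 5.77). It encodes secretory leukocyte protease inhibitor. It was found in 11.8% of vehicle and 64.4% of teriparatide members (3.53% and 35.6% thinned), with a highest value of 17.3 and 104 UMIs per 10000. Vehicle members were thus nearly all at 0, whereas teriparatide members ranged from 0 to values far above any vehicle cell. A few cells carried the sum: 5 cells held 75% of the 2056 teriparatide UMIs, and without the cell with most UMIs in each library the log2 ratio was 5.51. The levels were 21.8 and 852 CPM, and the log2 ratio was 4.84 (4.15 to 5.62) in male members.

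Hematopoietic RNA moved in the same direction, and its values bear on Slpi, which neutrophils also express. Summed over 9 neutrophil genes, members held 12.4 CPM with vehicle and 179 CPM with teriparatide, and most of the latter was S100a8 and S100a9. The 2 neutrophil genes with enough UMIs were both higher, and at most 12 UMIs of S100a8 were found in any member. Ptprc-positive cells held 513 and 338 CPM of Slpi beside 40943 and 98163 CPM of S100a8. Teriparatide members held 852 CPM of Slpi beside 70.8 CPM of S100a8. The 5 members richest in Slpi held 569, 518, 242, 134 and 80 UMIs of it, and 4, 3, 8, 22 and 1 UMIs of S100a8 and S100a9 together. These 5 cells were chosen for their Slpi, and the part of neutrophil RNA in the Slpi of members was not tested.

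Ecm1 and Serpine2, which encode other secreted proteins, were also higher. Ecm1 was found in 22.4% and 80.5% of members (4.71% and 40.2% thinned), with medians of 0 and 1.24 per 10000 UMIs, and in 1.75% and 5.01% of Ptprc-positive cells. It stood at 15 and 233 CPM (log2 ratio 3.95, 3.41 to 4.54), with 4.39 (3.33 to 5.71) in male members. Serpine2, an inhibitor of thrombin and plasminogen activators, ran from 0 over 0.30 to 8.15 with vehicle and from 0 over 3.26 to 32.2 with teriparatide. It stood at 89.2 and 617 CPM (2.79, 2.56 to 3.03), with 2.51 (2.14 to 2.90) in male members. The medians of both genes were higher with teriparatide, where the 5 richest members held 34% of the Ecm1 and 26.9% of the Serpine2 UMIs. After thinning, most teriparatide members held no UMI of Ecm1.

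Thbs4, Tnc, Postn and Rbp4 were rarer and concentrated in fewer cells. Thbs4, thrombospondin 4, stood at 5.18 and 92.8 CPM (log2 ratio 4.16, 3.26 to 5.24, and in male members 5.82, on 1 vehicle UMI), with 33.3% of teriparatide members holding a UMI and 1 of them 35.7% of the UMIs. Tnc, tenascin C, stood at 9.85 and 89.1 CPM (3.18, and 2.91 in male members), with 77.2% of the teriparatide UMIs in 5 cells. Postn, periostin, stood at 16.1 and 124 CPM (2.95, and 3.61 in male members), with 55.2% in 5 cells. Rbp4, the retinol carrier, stood at 17.1 and 90.7 CPM (2.41, with 2.29 in male members) and was found in 18.8% and 51.7% of members. Postn and Tnc mark preosteoblasts and belong to a list of 16 such genes, of which 9 had enough UMIs to be compared. Of these 9, 3 (with Mgp) were at least 2-fold higher and none lower, at a median log2 ratio of 0.57. In preosteoblasts themselves Postn stood at 952 and 2258 CPM and Tnc at 1923 and 2178 CPM, and Postn was among the genes that defined the preosteoblasts. Timp1, an inhibitor of metalloproteinases, stood at 307 and 769 CPM (1.32, with 1.08 in male members) and was found in 78.8% and 95.4% of members.

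The other genes with large ratios were Gm7334, S100a6 and Mt1. S100a6, a calcium-binding protein gene, stood at 9.85 and 84.1 CPM (log2 ratio 3.09), but Ptprc-positive cells held 1166 and 2749 CPM and 70.2% and 85.0% of them had a UMI. The part of RNA from such cells in the S100a6 of members was not tested. Mt1, metallothionein 1, stood at 30.6 and 193 CPM (2.66), with 2.88 in male members and -2.03 (-7.37 to 0.54) in female members, where the 4 teriparatide cells held 1 UMI. Gm7334, a predicted gene, stood at 4.15 and 42.7 CPM (3.36). It had no UMI in the 4 female teriparatide members, so no ratio is given for female cells.

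**Figure D3:**
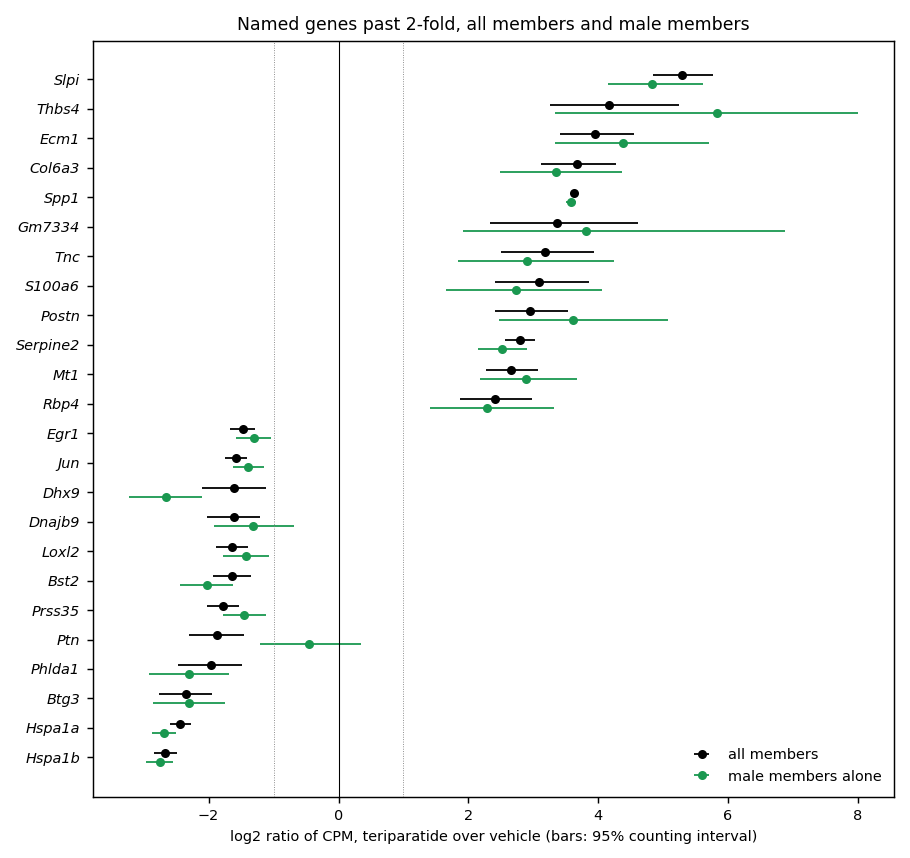
Log2 ratio of teriparatide to vehicle CPM (horizontal) for the 12 higher and 12 lower genes named by rule, in all members (black) and in male members alone (green), with 95% counting intervals as bars. The upper bound of Thbs4 in male members, which rests on 1 vehicle UMI, is cut at 8. The genes were chosen to have the same sign in male members, and among them the male value of Ptn, at -0.46, lies inside the dotted 2-fold lines.

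Lower with teriparatide were above all the immediate early and heat shock genes. From a list of 23 such genes, which many cells switch on within minutes of a stimulus or of heat, 22 were compared, 11 were at least 2-fold lower and none was higher. The median log2 ratio was -1.0 over all members and -1.08 over male members. Summed, the list held 6444 CPM with vehicle and 2524 CPM with teriparatide. Hspa1a and Hspa1b encode the inducible HSP70 chaperone from near-identical copies, so the split between them is uncertain. Hspa1a ran from 0 over a median of 0 to 50.6 per 10000 UMIs with vehicle and from 0 over 0 to 18.5 with teriparatide, and the upper quartiles were 4.92 and 0.53. It stood at 906 and 167 CPM (log2 ratio -2.44, -2.60 to -2.28), with -2.69 in male members, and Hspa1b at 842 and 133 CPM (-2.67). A UMI of Hspa1a was found in 45.9% and 40.2% of members, against 70.2% and 63.6% of Ptprc-positive cells.

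Of the AP-1 subunit genes, Fos, Jun, Junb and Jund were each at least 2-fold lower, whereas over all members Fosb, at 247 and 185 CPM (log2 ratio -0.42), and Fosl2 (-0.50) were not. In male members Fosb was at -0.66 and Fosl2 at -1.09 (-1.82 to -0.33). Fos, the most abundant of the list, ran from 0 over 2.88 to 87.0 with vehicle and from 0 over 2.08 to 40.1 with teriparatide. Its summed level was 1149 and 501 CPM (log2 ratio -1.20, -1.30 to -1.10), with -1.26 in male members. Jun stood at 484 and 162 CPM (-1.58, with -1.39 in male members), Junb at 352 and 162 CPM (-1.12, with -1.08), and Jund at 682 and 334 CPM (-1.03, with -0.79 in male members). Egr1, an early zinc finger factor, stood at 365 and 131 CPM (-1.48, with -1.31 in male members). Nr4a1, an orphan receptor gene of the same early class, had a log2 ratio of 0.34 (-0.44 to 1.14), with -0.22 in male members. Btg2 had one of 0.04, so over all members not every gene of the list was lower. Fos had a UMI in 86.0% and 87.1% of Ptprc-positive cells, so detection of these genes is not specific to bone cells.

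In other cells of the same libraries this list did not shift evenly. Its median log2 ratio was -2.54 in cells with high Col1a1 and low osteocalcin, where 19 of 19 genes compared were at least 2-fold lower, -0.74 in preosteoblasts (13 genes), -0.76 in the remaining Ptprc-negative cells (23 genes) and 0.00 in Acan-positive, chondrocyte-like cells (23 genes). In vehicle members, Spearman's rho of Hspa1a with the depth of the cell was 0.61, and in teriparatide members 0.51. The teriparatide members, though deeper, held less of it. Thinned to 3000 UMIs, 30.6% of vehicle and 16.1% of teriparatide members kept a UMI of Hspa1a.

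**Figure D4:**
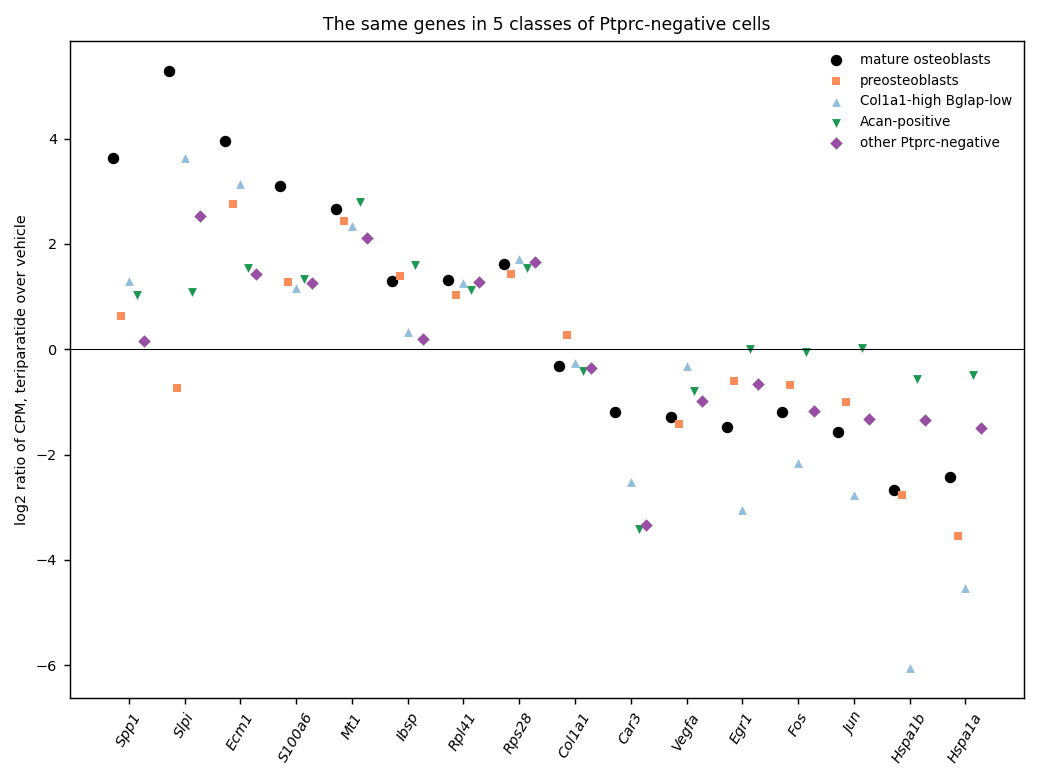
Log2 ratio of teriparatide to vehicle CPM (vertical) of 16 genes in 5 classes of Ptprc-negative cells, 1 point per gene and class. The point of Car3 in preosteoblasts is not drawn because it rests on 1 teriparatide UMI. Rps28 lies between 1.43 and 1.72 in the classes drawn, whereas Fos lies at -1.20 in mature osteoblasts and at -0.05 in Acan-positive cells.

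The other lower genes named by rule were Btg3, Phlda1, Ptn, Prss35, Bst2, Loxl2, Dnajb9 and Dhx9. Btg3, an antiproliferative gene, stood at 133 and 26.1 CPM (log2 ratio -2.35) and was found in 70.6% and 40.2% of members. Prss35, a secreted serine protease-like protein gene, stood at 278 and 81.2 CPM (-1.77, with -1.45 in male members). Bst2, an interferon-responsive antiviral gene, stood at 178 and 57.2 CPM (-1.64, with -2.03 in male members). Ptn, pleiotrophin, stood at 95.4 and 26.1 CPM (-1.87), but its level in vehicle members was 36 CPM in male and 122 CPM in female cells, and the ratio within male members was -0.46 (-1.21 to 0.34). Phlda1 stood at 77.8 and 19.9 CPM (-1.97). Dhx9, an RNA helicase gene, rested on 1 vehicle cell with 47.6% of the vehicle UMIs, and without the richest cell of each library its log2 ratio was -0.79 in place of -1.61.

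Most genes of the secretory pathway stayed within 2-fold. Of 40 genes of protein export and the unfolded protein response, all were compared, 3 (Dnajb9, Hyou1 and Manf) were at least 2-fold lower, none was higher, and 6 were above 0. Hyou1 was at -1.02, with -0.53 in male members. Their median log2 ratio was -0.37, against -0.11 over all genes compared, and in male members -0.19, against -0.075. Dnajb9, an endoplasmic reticulum cochaperone, stood at 89.7 and 29.4 CPM (-1.61), and Manf, a secreted stress protein, at 498 and 247 CPM (-1.01, with -0.57 in male members). The median of the list was lower in each of the other classes, at -0.46 in cells with high Col1a1 and low osteocalcin, -0.55 in Acan-positive cells, -0.58 in preosteoblasts and -0.83 in the remaining Ptprc-negative cells, over 31, 40, 30 and 40 genes.

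**Figure D5:**
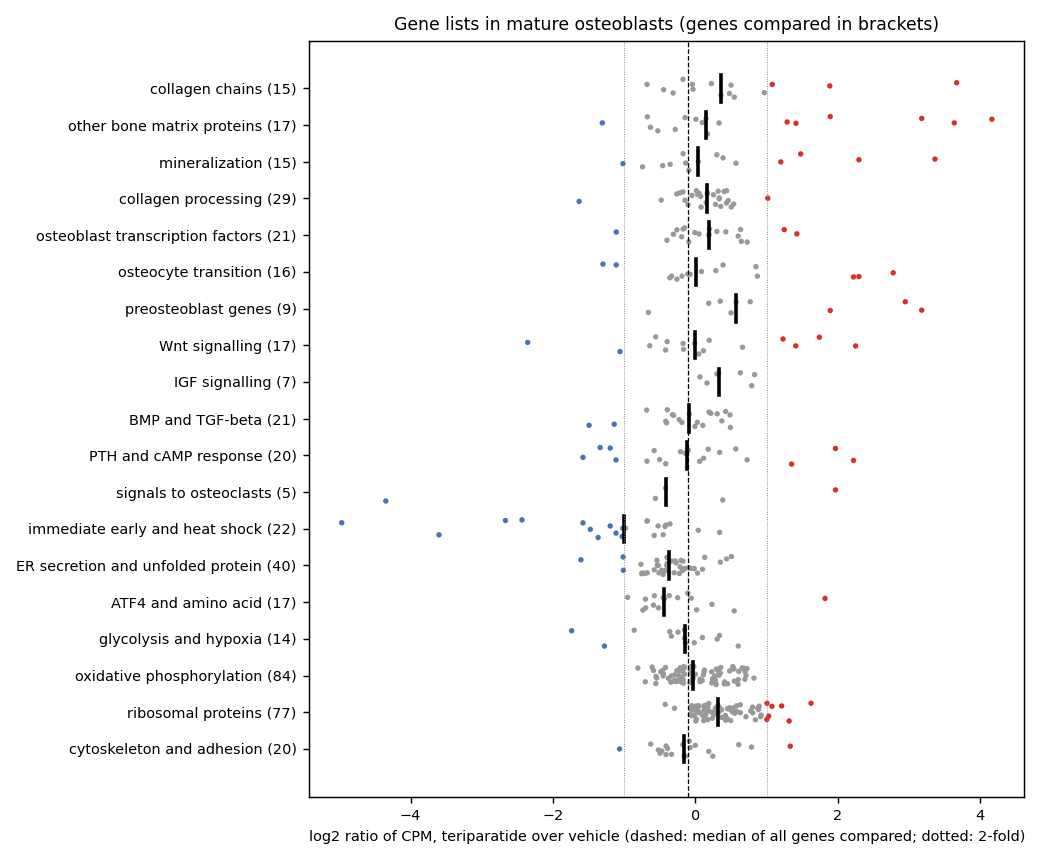
Log2 ratio of teriparatide to vehicle CPM (horizontal) of each gene compared in 19 gene lists, 1 point per gene, red from 2-fold higher and blue from 2-fold lower. Short black bars are list medians, the dashed line is the median of all 5847 genes. The median of immediate early and heat shock genes lies at -1.0, that of ribosomal proteins at 0.32 and that of oxidative phosphorylation at -0.03.

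Ribosomal protein genes were higher by a small step. Of 77 compared, 66 were above 0, 7 were at least 2-fold higher and none was lower, with a median log2 ratio of 0.32 (0.31 in male members). They took 9.52% of the members' UMIs with vehicle and 12.9% with teriparatide. The step was larger for some genes than for others. Rps28 ran from 0 over 9.69 to 35.3 per 10000 UMIs with vehicle and from 4.50 over 28.4 to 49.7 with teriparatide, and its summed level was 970 and 2986 CPM (1.62, 1.55 to 1.70). Rpl41 stood at 2959 and 7365 CPM (1.32), Rpl39 at 1697 and 3462 CPM (1.03, with 0.99 in male members), whereas Rpl8 had a log2 ratio of -0.07. The list had a median of 0.14 in preosteoblasts (48 of 77 genes above 0), 0.24 in Acan-positive cells (50 of 77), 0.31 in the remaining Ptprc-negative cells (68 of 77) and 0.39 in cells with high Col1a1 and low osteocalcin (66 of 76). Rps28 had a log2 ratio of 1.43 in preosteoblasts, 1.54 in Acan-positive and 1.35 in Ptprc-positive cells, and Rpl41 one of 1.02, 1.12 and 1.00. An effect of treatment and a difference between the 2 libraries cannot be told apart. Many ribosomal protein genes have processed pseudogenes, and reads shared with these make single values uncertain. Of 84 genes of oxidative phosphorylation, none reached 2-fold in either direction and 40 were above 0. Their median was -0.03, against -0.11 over all genes compared, and in male members 0.09, against -0.075. The whole list took 1.44% of the members' UMIs with vehicle and 1.62% with teriparatide. Of 14 genes of glycolysis and hypoxia, 2 were lower, the glycolytic enzyme gene Pgk1 (-1.74) and the angiogenic factor gene Vegfa (-1.28), and none was higher, with a median of -0.15. Of 17 genes of the ATF4 and amino acid response, 1 was higher, the mTOR inhibitor gene Ddit4 (1.82), and none was lower, with a median of -0.44. Of 20 genes of cytoskeleton and adhesion, Itgb5, an integrin subunit gene, was higher (1.33, with 0.95 in male members) and Actg1, a cytoplasmic actin gene, was lower (-1.07), with a median of -0.17.

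Most regulators of the osteoblast programme stayed within 2-fold. Of 21 transcription factor genes compared, 2 were at least 2-fold higher (Maf and Runx3) and 1 was lower (Irx5), against 2.63% and 2.27% of all genes compared. The median log2 ratio was 0.19, and -0.07 in male members. Maf stood at 16.6 and 39.4 CPM, with a log2 ratio of 0.80 (-0.018 to 1.73) in male members, and Runx3 at 7.26 and 19.5 CPM. Runx2, the master regulator of the lineage, stood at 129.6 and 196 CPM (0.60, 0.38 to 0.83). Mef2c, a factor of osteocyte maturation, stood at 703 and 587 CPM (-0.26). Of the 15 mineralization genes, 4 were higher and 1 was lower, and the median was 0.04. Vdr, the vitamin D receptor, stood at 44.1 and 101 CPM (1.20), but its ratio in male members was 0.34 (-0.13 to 0.83). Ank, a pyrophosphate transporter, stood at 33.2 and 92.4 CPM (1.48). Enpp1, which makes extracellular pyrophosphate and was named after its values were seen, stood at 4.15 and 42.7 CPM (3.36, with 1.07 in male members), but 11 teriparatide cells held all of its UMIs there. Alpl, tissue-nonspecific alkaline phosphatase, stood at 563 and 694 CPM (0.30).

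Genes of the osteocyte transition gave a mixed picture, beside 2.63% higher and 2.27% lower of all genes compared. Of 16 compared, 3 were at least 2-fold higher, among them Dmp1 and Mmp13, and 2 were lower, Pdpn and Irx5, with a median of 0.00 over all and -0.34 over male members. Mmp13, the collagenase of osteoblasts and hypertrophic chondrocytes, stood at 15 and 70.0 CPM (2.22), with 92.3% of the teriparatide UMIs in 5 cells. Its log2 ratio was 3.71 in male members, on 3 vehicle UMIs, and 3.98 in female members. Pdpn, the podoplanin of early osteocytes, stood at 62.2 and 25.3 CPM (-1.30) and was found in 17.6% and 11.5% of members. Its log2 ratio was -2.83 in male and 1.85 in female members, and 0.29 in members with Bglap plus Bglap2 of at least 100 per 10000. Mepe was held under 2 per 10000 by the rule, and Sost was at 0 in both libraries.

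Genes of the parathyroid hormone (PTH) response and of the Wnt pathway moved in both directions. Of all genes compared, 2.63% were at least 2-fold higher and 2.27% lower. Of 20 genes compared from a list of PTH and cAMP response, 3 were at least 2-fold higher (among them Csf1 and Mmp13) and 4 lower (Fos, Jun, Junb and, at -1.34 over all and -0.93 over male members, Nr4a2), with a median log2 ratio of -0.12, and -0.53 in male members. Pth1r stood at 461 and 500 CPM (0.11, -0.01 to 0.24) and Gnas, its stimulatory G protein, at 1413 and 1221 CPM (-0.21). Of 17 Wnt genes, 4 were higher and 2 lower, with a median of -0.01. The higher ones included the secreted inhibitors Wif1 and Notum. Wif1, which binds Wnt ligands, ran from 0 over 0.27 to 27.6 per 10000 UMIs with vehicle and from 0 over 2.02 to 17.7 with teriparatide. It stood at 133 and 352 CPM (1.41, 1.20 to 1.62), with 1.59 in male members. Notum, a carboxylesterase that inactivates Wnt ligands, stood at 9.33 and 44.3 CPM (2.25) and was found in 16.5% and 50.6% of members (2.35% and 9.2% thinned). Tcf7l2, a nuclear effector of the pathway, stood at 20.2 and 67.5 CPM (1.74), and Wnt4, a ligand, at 222 and 106 CPM (-1.06, with -0.82 in male members). Wif1 and Tcf7l2 were above 0 and past 2-fold in male members too, and Dkk1, a Wnt inhibitor and the other lower gene, stood at 46.7 and 9.11 CPM (-2.36), in the opposite direction to Wif1 and Notum. A single vehicle cell held 52.2% of the vehicle UMIs of Dkk1.

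IGF signalling is one of the pathways named in the study's title. All 7 genes compared were above 0 and none reached 2-fold over all members, with a median log2 ratio of 0.33. In male members the median of the same 7 genes was 1.23, which is the value of Igf1r, on 14 male vehicle UMIs. Above it were Igfbp4, Igfbp5 and Igfbp7, on 5, 10 and 4 male vehicle UMIs. Below it were Irs1 (0.38), Igf2r (0.07) and Insr (-0.02). In female members, with 4 teriparatide cells, Igf1r, Igfbp4, Igfbp5 and Igfbp7 were below 0 and Igf2r, Insr and Irs1 above 0. Igf1r, the IGF1 receptor, stood at 30.1 and 53.4 CPM (0.83, 0.37 to 1.30), with 1.23 in male members. Igfbp5, a binding protein of bone matrix, stood at 49.2 and 76.2 CPM (0.63), and 1 vehicle cell held 69.5% of its vehicle UMIs. Within male members it stood at 17.1 and 83.7 CPM (2.29, 1.38 to 3.37). Of 21 genes of the BMP and TGF-beta pathways, none was higher and 2 were lower, Bmp7 (-1.49) and Fstl1 (-1.14, with -0.51 in male members), with a median of -0.09. Of the 5 signals to osteoclasts compared, Csf1 was higher, at 4.67 and 18.2 CPM (1.97). Thinned to 3000 UMIs per cell, Csf1 had too few UMIs for a ratio. Tnfrsf11b, the decoy receptor osteoprotegerin, stood at 30.6 and 20.7 CPM (-0.56).

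Another of these signals, Cxcl12, showed how a single cell can set a value in a class of this size. Cxcl12, the chemokine of marrow stromal cells, had 293 UMIs in vehicle members, of which 1 cell held 278. The same cell held 47 of the 50 UMIs of Adipoq, a marker of marrow adipogenic precursors, and the teriparatide members held 0, where a count of 0 allows up to 3. The log2 ratio of Cxcl12 was -4.35 with this cell and -0.32 without the richest cell of each library. Without this cell 165 genes were at least 2-fold higher and 127 lower.

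Markers of other cell types were mostly low, and their levels differed between the libraries. Among the exceptions were Col2a1, a chondrocyte gene found in 55.3% and 79.3% of members, and Ctsk, from a list of osteoclast genes, at 167 and 218 CPM. Of 9 erythroid genes, 2 (Hbb-bs and Hba-a1) had enough UMIs and both were higher, and the list summed to 17.1 CPM with vehicle and 130.5 CPM with teriparatide, with Klf1 and Hemgn at 0 in both. A UMI of Hbb-bs was found in 13 vehicle and 68 teriparatide members, against summed levels of 36475 and 98666 CPM in the remaining Ptprc-negative cells. The neutrophil values are given above. The 10 monocyte and macrophage genes summed to 7.78 and 24 CPM, with Ccr2 and C1qa at 0. Fcer1g led this list in the teriparatide members only. Of 11 chondrocyte genes, 1, Col2a1, was compared, and the list summed to 694 and 387 CPM. These sums followed Col2a1, at 663 and 335 CPM, with 333 of its 1279 vehicle UMIs in 1 cell. Most of the other genes, each with too few UMIs to be compared, had more UMIs with teriparatide. Of 8 genes of marrow adipogenic precursors, 4 were compared and 3 were lower. Cxcl12 led the list's vehicle sum of 273 CPM. The fourth gene compared, the leptin receptor gene Lepr, led the teriparatide sum of 86.2 CPM. It stood at 34.7 and 64.6 CPM (0.90, with 2.27 in male members). Without the richest cell of each library none of these 3 stayed 2-fold lower, with Lpl, the lipoprotein lipase gene, at -0.74 in place of -5.13 (-8.21 to -3.21, on 2 teriparatide UMIs) and Adipoq without a ratio. Endothelial genes summed to 1.04 and 2.49 CPM, B cell genes to 2.07 and 0 CPM, and muscle genes to 4.67 and 5.80 CPM. The part of this RNA in the results above was not tested.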

How the data were processed

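The authors aligned reads of the 10x Genomics 3′ libraries (v2 chemistry) to mm10 and deposited UMI counts per gene and barcode. The submitters' processing notes name Cell Ranger 2.1.0, and the file headers give software version 3.1.0. The counts of 27998 genes were used as deposited. The paper also describes a step that joined the matrices and brought the libraries to equal depth. Whether the deposited counts went through it is not known, so the depths given here may be depths after that step. Gene positions came from GENCODE on GRCm38.

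The members, gene lists and tests were chosen with earlier results of these data known. Doublets were not called beyond the study's limit of 6000 genes. UMIs of members were summed per library and divided by the library's sum (CPM), and genes with at least 50 summed UMIs were compared, in Python 3.11.15 with scipy 1.17.1. With 1 library per group no test was run. Intervals were exact Poisson (CPM), Clopper-Pearson (shares) and conditional binomial (ratios), at 95%. Ratios against 0 used a floor of 3 counts. Code was tested on simulated data.

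Genes were named by rule: the markers; the 12 largest and 12 smallest ratios past 2-fold with at least 100 UMIs, a UMI in 25% of the members of the library where they were higher and the same sign in male cells, outside sex-linked and blood, endothelial and muscle marker genes; of each list the genes past 2-fold (at most 4) and the 2 most abundant; the 10 most abundant and 12 most uneven genes; and the 10 most above preosteoblasts and osteocyte-like cells. Rpl8, Nr4a1, Btg2, Fosb, Fosl2, Runx2, Alpl, Pth1r, Igf1r, Fcer1g, Enpp1 and Dkk1 were added after their values were seen. Alternatives varied cell limits, thresholds, sex, depth, weighting and scaling.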

Additional observations from a re-analysis of the deposited data

Results flagged for a closer look

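For 10 of the named genes the ratio of teriparatide to vehicle had opposite signs in male and female members, with both counting intervals away from 0. The difference between the sexes was not tested, and the female teriparatide members were 4 cells. Pdpn had a log2 ratio of -2.83 in male and 1.85 in female members, Phex -0.79 and 2.40, Irx5 -2.01 and 1.14, Tnfrsf11b -1.05 and 1.67, and Mef2c -0.51 and 1.10. Phex, Pdpn, Irx5 and Mef2c belong to the genes of osteocyte transition, and Phex stood at 360 and 208 CPM in male members and at 142 and 752 CPM in female members. The other genes differed by less. Nupr1 was at -0.32 and 0.58, Cpe at 0.21 and -0.45, Cthrc1 at 0.14 and -0.47, Smpd3 at 0.24 and -0.35 and mt-Atp6 at 0.11 and -0.32.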

How the results depend on the processing

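The same sign in male cells was required of the 24 genes named for their ratio. Under the other 14 settings they kept their sign, except that in female cells Mt1 turned (-2.03) and Gm7334, with 0 teriparatide UMIs, had no ratio. Of the 24, 19 stayed past 2-fold in female cells, and 23 did with Col1a1 of at least 200, after thinning and without the richest cell of each gene. The share of mature osteoblasts left its interval in the vehicle library for male (13.8%) and female cells (28.7%), and in the teriparatide library for female cells (5.13%) and with Ptprc-positive cells in the denominator (8.09%). Counts of genes at least 2-fold higher and lower were 39 and 30 of 932 genes after thinning to 3000 UMIs, 49 and 40 with at least 200 UMIs per gene, 367 and 312 with at least 20, and 451 and 688 at 1.5-fold. In female cells 163 genes were higher and 260 lower of 2742. Of the other named genes past 2-fold, the sign turned for Car2 (1.68), Cxcl12 (0.65), Ddx3y (-0.019) and Eif2s3y (-0.45) in male cells, for Irx5 (1.14), Pdpn (1.85) and Xist (0.18) in female cells, for Pdpn (0.29) with Bglap plus Bglap2 of at least 100, and for Car12 (-0.16) after thinning. Csf1 and Runx3 had too few UMIs for a ratio after thinning, as had Lpl and Adipoq in male cells. The cause was not tested. The settings without the richest cell of each gene and without the vehicle cell rich in Cxcl12 were chosen after seeing the data. No paired analysis was possible because each group was 1 library and the labels give no replicate numbers. With 85 and 87 cells, ratios of genes with few UMIs rest on few molecules, and the 2 libraries allow no statement on mice.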

Other observations

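Within the vehicle library, where both sexes had at least 26 members, some genes differed between them. Car2, the carbonic anhydrase of osteoclasts and some marrow cells, stood at 6.85 CPM in male and 68.2 CPM in female members, and Col3a1, the fibrillar collagen of soft tissue, at 87.3 and 329 CPM. Dmp1 stood at 322 and 96.3 CPM and Phex at 360 and 142 CPM, so that the sums of both osteocyte genes were higher in male cells, although 5 vehicle cells held 71.9% of the Dmp1 UMIs. Col1a1, at 154254 and 144341 CPM, and Sp7, at 247 and 236 CPM, were close. These values compare the cells of several mice within a single library and were not tested.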
